A study of Mus musculus with 96 samples.

Results

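The late-life change of the hippocampus was taken as the difference between mice of 22 months and mice of 18 months that had received injections of PBS, the saline vehicle of the study. The members are 7 of the 96 libraries of the series, chosen by their labels alone: the hippocampus libraries of experiment 1 from 3 PBS mice of 22 months (replicates 15, 18 and 21) and 4 PBS mice of 18 months (replicates 2, 5, 8 and 11). All 7 came from male C57BL/6J mice given PBS on 7 consecutive days, each library from a separate mouse, and no genetic alteration is named. The study as a whole followed injections of plasma from young mice in the cerebellum, cortex and hippocampus by mRNA sequencing of whole tissue. The same ages were also sampled in 3 mice of 22 months and 5 mice of 18 months given young plasma on 7 consecutive days, and naive, uninjected mice were sampled at 18 months (3 mice) and 2 months (4 mice). The other hippocampus libraries of experiment 1 came from mice of 19 months injected on 24 consecutive days with young plasma (3 mice, called long plasma) or PBS (4 mice, called long PBS), and they entered the common fit. Experiment 2 held plasma (5 mice) and PBS (4 mice) groups of 18 months, used in an alternative fit only.

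The hippocampus holds granule cells of the dentate gyrus, pyramidal cells of the CA fields, interneurons and glia. Prox1 is a homeobox transcription factor that marks dentate granule cells, so its level in a library reports on how much granule cell RNA the dissected tissue gave. Oligodendrocytes wrap axons in myelin and arise from precursors through a premyelinating stage, while microglia and astrocytes take on reactive states with age in the mouse brain. In whole tissue, fewer cells of a type and less RNA per cell cannot be told apart.

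The 7 libraries held 3920315 to 13566011 counts, with 6464174 to 10750901 counts at 22 months and 3920315 to 13566011 at 18 months. The titles carry a second number whose meaning is not given: replicates 15 and 18 at 22 months share 1 number and replicate 21 has another, while at 18 months replicates 2, 5 and 8 share 1 number and replicate 11 has another. No number holds both ages, so age and this number cannot be told apart and no value within a number could be had. Transcripts of mature granule cells and of CA1 pyramidal cells were present in all 7 libraries, with the summed level of 18 granule cell markers at 782 to 904 counts per 1000000 counts of the library (CPM) at 22 months and 706 to 903 CPM at 18 months. The 10 lymphocyte genes looked at did not pass the filter on low counts, and their sum reached at most 2.23 CPM at 22 months and 2.36 CPM at 18 months.

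Prox1 was measured at 88.9, 98.9 and 66.3 CPM in replicates 15, 18 and 21 at 22 months, against 75.0, 44.4, 79.6 and 44.5 CPM in replicates 2, 5, 8 and 11 at 18 months. The low pair at 18 months was replicates 5 and 11, and the groups overlapped through replicate 21. The mean was 84.7 ± 16.7 CPM at 22 months and 60.9 ± 19.0 CPM at 18 months (SD, n = 3 and 4), a difference of 23.8 CPM with a two-sided exact permutation p of 0.171, where 3 against 4 mice cannot go below 0.0571. Over the 29 hippocampus libraries of experiment 1 the median was 78.8 CPM, and a library under 0.5 of it, 39.4 CPM, was called low. That rule took 4 libraries, none of them among the 7: naive 2-month replicates 14 (17.2 CPM) and 20, a long PBS mouse (22.2 CPM) and a long plasma mouse, both of 19 months after 24 days of injection. Replicates 5 and 11 at 18 months were the next above them, ranking 5 and 6 from the lowest of the 29.

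**Figure D1:**
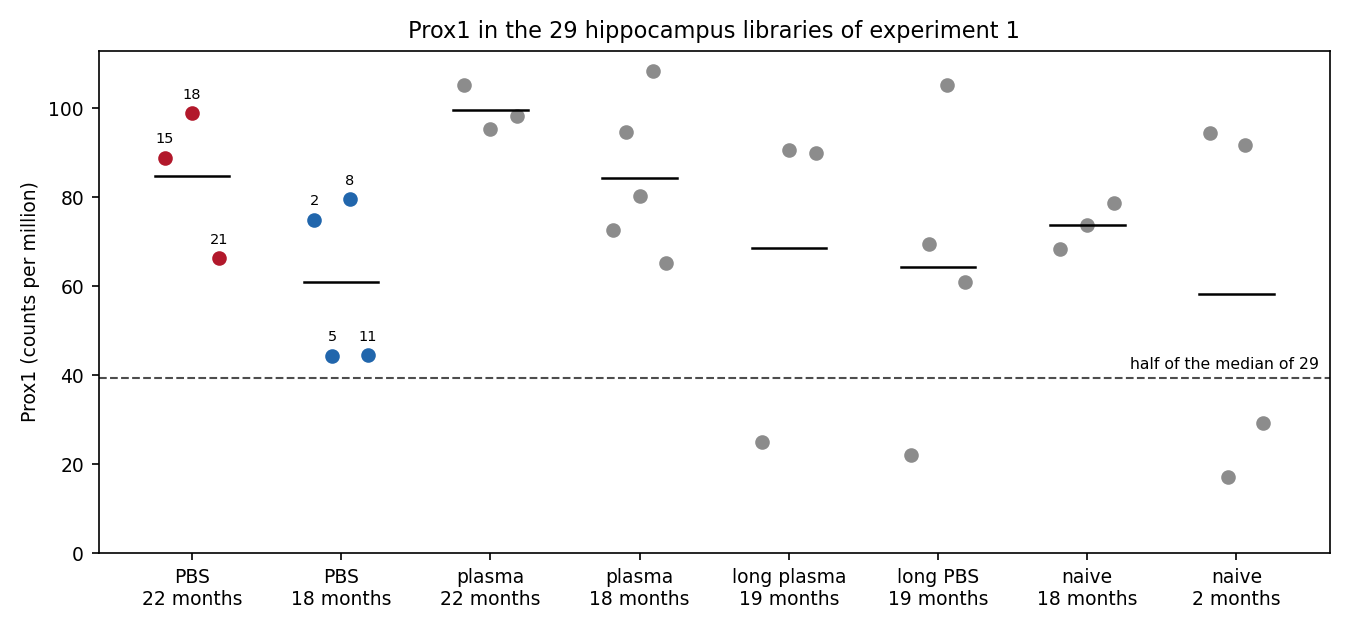
Prox1 in CPM (vertical axis) in each of the 29 hippocampus libraries of experiment 1, by group; points are mice, bars group means, numbers the replicates of the 2 PBS groups compared here, and the dashed line is 0.5 of the median, 39.4 CPM. All 7 PBS libraries of 22 and 18 months lie above the line, with 18-month replicates 5 and 11 nearest to it.

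Other granule cell markers did not move as 1 block. Lct, another gene of the granule cell list, had 46.4, 41.6 and 19.2 CPM at 22 months, against 27.3, 5.55, 21.7 and 5.53 CPM at 18 months, again lowest in replicates 5 and 11. Calb1, which encodes the calcium buffer calbindin, had 97.8, 130 and 135 CPM at 22 months, against 144, 172, 170 and 177 CPM at 18 months. Its groups did not overlap and replicates 5 and 11 were among the highest, with a log2 fold change of -0.42 ± 0.18 (SE), an unadjusted p of 0.0293 and an adjusted p of 0.608 by edgeR. Of the 18 granule cell markers, 13 were higher and 5 lower at 22 months, with a median log2 change of 0.30, and 0.06 when replicates 5 and 11 were left out. Those 2 libraries were left out for their low Prox1, itself a member of the list. A smaller median was therefore favoured by the choice and is no separate result. CA1 markers had 9 of 10 genes higher with a median of 0.43, and 0.15 without those 2 libraries. The median over all tested genes was 0.01, and 52.4% of them lay above 0.

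Across all 18070 genes tested, none passed an adjusted p of 0.05 in edgeR's quasi-likelihood test (0% called), where 1 fit over the 29 libraries gave the spread. At an unadjusted p under 0.05 there were 1386 genes (7.67%), of which 709 were higher (3.92%) and 677 lower (3.75%) at 22 months. The CPM of the 2 groups did not overlap in 1888 genes (10.4%), 762 higher (4.22%) and 1126 lower (6.23%). DESeq2 called 1 gene, Slc16a8, which was at 0 in all 3 libraries of 22 months and at 0.458 ± 0.221 CPM at 18 months (SD, n = 3 and 4). The same edgeR test fitted to the 7 libraries alone called 21 genes, 20 of them higher at 22 months, and limma-voom with sample quality weights called 16, 6 higher and 10 lower. All hippocampal changes between these 2 groups that follow are therefore below the threshold of the main test. Calls of these other fits are given beside the genes concerned.

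Myelin genes were higher at 22 months as a group. All 14 genes of the myelin list had a positive log2 change, with a median of 0.59 against 0.01 over all genes, and 13 of the 14 had an unadjusted p under 0.05 (3.92% of all genes did so in that direction). Adjusted p-values in edgeR ran from 0.503 to 0.783. The summed level of the 14 genes was 6928 to 8328 CPM at 22 months and 4647 to 5553 CPM at 18 months, so the groups did not overlap.

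Mbp, which encodes myelin basic protein, had 3712, 3680 and 2979 CPM at 22 months, against 2429, 2378, 2429 and 2058 CPM at 18 months. Its groups did not overlap, with replicate 21 the lowest library of 22 months and replicate 11 the lowest of 18 months. The log2 fold change was 0.61 ± 0.25 (SE, unadjusted p = 0.0213), and the fit to the 7 libraries alone called the gene, with an adjusted p of 0.0363 by edgeR.

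Opalin, a membrane protein of oligodendrocytes, showed 40.2, 35.0 and 27.3 CPM at 22 months, against 20.2, 22.9, 17.2 and 18.1 CPM at 18 months. Its log2 fold change of 0.84 ± 0.25 (SE) was the largest of the 14 in edgeR, with an unadjusted p of 0.0024. Trf, which encodes the iron carrier transferrin made by oligodendrocytes, stood at 678, 680 and 596 CPM at 22 months, against 431, 406, 403 and 357 CPM at 18 months. Its log2 fold change was 0.74 ± 0.28 (SE, unadjusted p = 0.0128), and it overlaps a second gene model, Gm20425, with which it can share reads. Cnp, an enzyme of the myelin sheath, had 515, 513 and 476 CPM at 22 months, against 365, 363, 353 and 338 CPM at 18 months. Both Trf and Cnp were without overlap, and both were called by edgeR in the 7 libraries alone (adjusted p = 0.00418 and 0.0102). Mag, an adhesion protein of the inner sheath, and Ugt8a, which makes galactocerebroside, were called there too, each with an adjusted p of 0.0184. The exception of the list was Myrf, the transcription factor of myelinating oligodendrocytes, which had 46.0, 43.5 and 36.7 CPM at 22 months, against 37.5, 38.3, 34.0 and 27.1 CPM at 18 months and overlapped. Mog, on the outer face of myelin, only just did not overlap, since its lowest library of 22 months and its highest of 18 months both stood at 51.5 CPM. Without 18-month replicates 5 and 11 the median change of the list was 0.52, yet 2 of the 14 genes were left at an unadjusted p under 0.05. With Prox1 as a covariate the median was 0.51 and 9 genes were at that level.

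**Figure D2:**
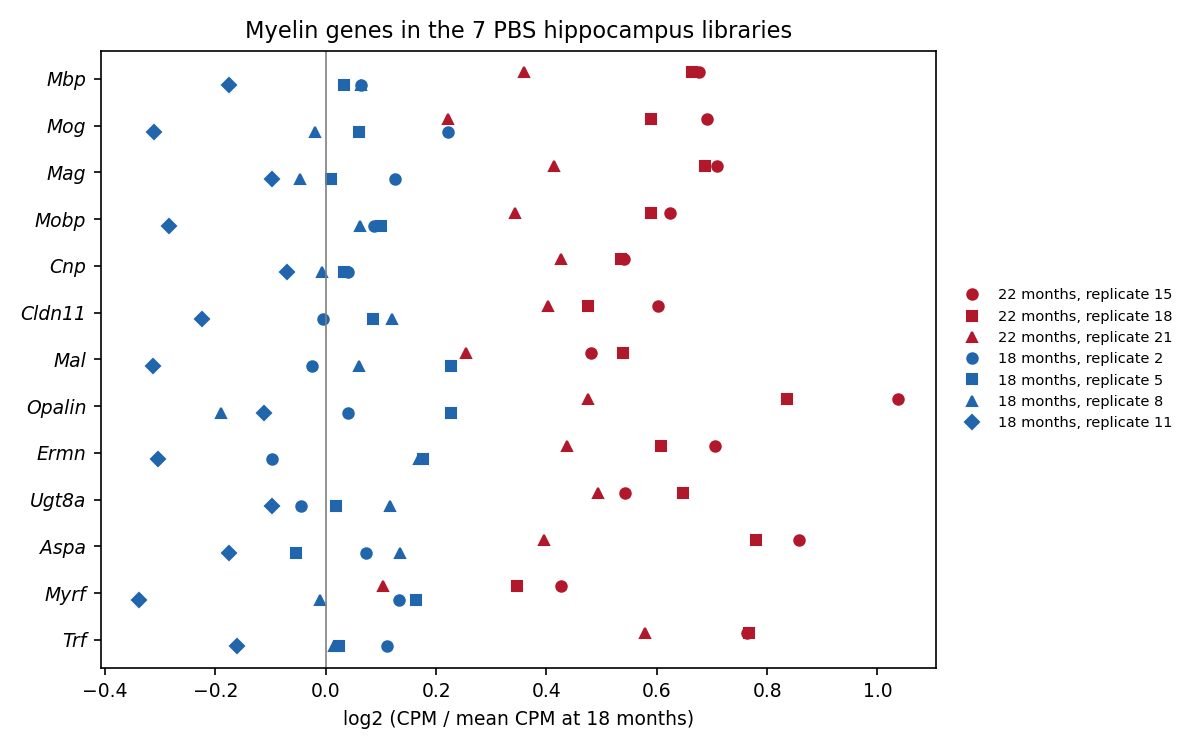
Each row is 1 of 13 myelin genes and each point 1 of the 7 PBS hippocampus libraries, plotted as the log2 ratio of its CPM to the mean CPM of the 18-month mice (22 months in red, 18 months in blue). The 3 libraries of 22 months lie right of the 18-month libraries in every row but Myrf, in Mog barely, and replicate 21 is the lowest library of 22 months in each row.

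Promoters are shown for the myelin genes that matched a loose form of the motif of Myrf, the list's own transcription factor. RefSeq promoter windows of the GRCm38.p6 build, 250 bases before to 50 after the start, were at hand for 10 of the 14 genes. The search used CTGGNAC, where N is any base, as a loose form of the motif that MYRF binds. The shares that follow hold for this form only. Searched on both strands, this motif was in a window of 4 of the 10 genes (40.0%), namely Mag, Cnp, Mog and Opalin, and in a window of 21.4% of the 27025 genes listed. A match is a description of these letters and not a binding site. The 4 windows are printed 5′ to 3′ with the motif, on either strand, in capitals.
Mag, chr7:30914814-30915113, minus strand: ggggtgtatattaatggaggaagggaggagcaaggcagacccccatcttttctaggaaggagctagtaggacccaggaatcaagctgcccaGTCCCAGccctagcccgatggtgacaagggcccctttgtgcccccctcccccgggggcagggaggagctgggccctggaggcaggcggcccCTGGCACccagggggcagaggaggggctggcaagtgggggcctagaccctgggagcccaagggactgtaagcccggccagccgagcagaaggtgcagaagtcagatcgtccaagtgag
Cnp, chr11:100574689-100574988, plus strand: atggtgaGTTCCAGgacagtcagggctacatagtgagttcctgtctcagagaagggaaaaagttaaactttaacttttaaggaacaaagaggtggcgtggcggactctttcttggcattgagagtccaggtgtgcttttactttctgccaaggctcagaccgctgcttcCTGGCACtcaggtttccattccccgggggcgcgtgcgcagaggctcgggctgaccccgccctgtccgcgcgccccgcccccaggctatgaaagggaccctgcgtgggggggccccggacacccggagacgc
Mog, chr17:37023349-37023648, minus strand: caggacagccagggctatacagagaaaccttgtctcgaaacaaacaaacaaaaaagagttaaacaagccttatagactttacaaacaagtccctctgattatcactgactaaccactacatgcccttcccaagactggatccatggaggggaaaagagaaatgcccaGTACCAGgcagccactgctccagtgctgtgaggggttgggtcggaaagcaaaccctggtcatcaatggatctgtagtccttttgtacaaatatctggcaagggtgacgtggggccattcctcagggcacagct
Opalin, chr19:41077064-41077363, minus strand: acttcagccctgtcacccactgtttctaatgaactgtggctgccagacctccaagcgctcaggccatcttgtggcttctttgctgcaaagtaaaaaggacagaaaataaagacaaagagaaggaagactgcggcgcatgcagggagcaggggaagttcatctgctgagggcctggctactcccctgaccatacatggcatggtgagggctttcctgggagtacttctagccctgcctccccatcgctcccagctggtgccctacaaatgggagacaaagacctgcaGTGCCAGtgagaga
The windows of the other 6 genes, such as Ugt8a and Mobp, did not hold these letters.

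Genes of the stages before myelin did not share 1 direction. Gpr17, a receptor of premyelinating oligodendrocytes, had 18.3, 17.1 and 17.8 CPM at 22 months, against 25.8, 24.9, 20.4 and 31.2 CPM at 18 months. All 3 libraries of 22 months were lower than any of 18 months, with a log2 fold change of -0.51 ± 0.12 (SE), an unadjusted p of 0.000305 and an adjusted p of 0.498 by edgeR. Bcas1, which marks oligodendrocytes that are starting to make myelin, went the other way, with 131, 121 and 111 CPM at 22 months, against 83.7, 81.2, 72.1 and 60.9 CPM at 18 months. It was one of the 21 genes called in the 7 libraries alone (log2 fold change 0.74 ± 0.11, SE, adjusted p = 0.0297 by edgeR). Of the 12 precursor genes, 5 were higher and 7 lower, with a median log2 change of -0.07.

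The 21 genes called in the 7 libraries alone held 6 of the 14 myelin genes, among them Trf, Cnp, Mag, Ugt8a and Mbp. Galnt6, an enzyme that starts O-linked glycans, averaged 20.5 CPM at 22 months, with a log2 fold change of 0.99 ± 0.14 over 18 months (SE). Gatm, which carries out the first step of creatine synthesis, averaged 250 CPM at 22 months and 182 CPM at 18 months. Pmp22, a myelin protein of peripheral nerve, averaged 35.1 CPM at 22 months and 24.1 CPM at 18 months, and Lpar1, a receptor for lysophosphatidic acid, 57.6 CPM at 22 months and 39.9 CPM at 18 months. The adjusted p of these 4 lay between 0.0184 and 0.0297 by edgeR. Fbxo32, a ubiquitin ligase subunit, averaged 24.4 CPM at 22 months and 14.3 CPM at 18 months. Clic4 and Arap2, a chloride channel family protein and a regulator of small GTPases, were also higher, Arap2 with a call by limma-voom as well (adjusted p = 0.0344), and Egr1, an immediate early transcription factor, averaged 169 CPM at 22 months and 121 CPM at 18 months. Syt17, of the synaptotagmin family, was the single gene lower, with an average of 64.9 CPM at 22 months and 98.3 CPM at 18 months (log2 fold change -0.57 ± 0.09, SE, adjusted p = 0.0297 by edgeR). These genes were named after their values were seen.

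Neat1, a nuclear long noncoding RNA that builds paraspeckles, had 152, 137 and 123 CPM at 22 months, against 95.2, 81.0, 79.0 and 68.2 CPM at 18 months. Its log2 fold change was 0.81 ± 0.22 (SE, unadjusted p = 0.00115) in the fit over 29 libraries and it was called in the 7 alone (adjusted p = 0.0241 by edgeR). C4b, complement component 4 and a common marker of brain ageing in mice (chr17:34728380-34743882, GRCm38, minus strand), had 147, 128 and 139 CPM at 22 months, against 93.1, 92.6, 85.5 and 87.7 CPM at 18 months. The mean was 138 ± 9.65 CPM at 22 months and 89.7 ± 3.76 CPM at 18 months (SD, n = 3 and 4). C4b shared the lowest adjusted p of the 7-library fit with Trf and Gm20425, at a log2 fold change of 0.65 ± 0.07 (SE) and an adjusted p of 0.00418 by edgeR, against 0.66 ± 0.23 and 0.574 over 29 libraries. Its near-identical copy C4a averaged 0.356 CPM at 22 months and 1.31 CPM at 18 months, and reads of the 2 genes may be split between them by the counting.

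Among the 10 higher genes named by p, the groups are apart by rule and the values are a description. Map7, a microtubule-associated protein (chr10:20148471-20281590), had 96.2, 92.4 and 91.8 CPM at 22 months, against 75.0, 77.9, 75.8 and 77.8 CPM at 18 months. The spread within each age was narrow, and the log2 fold change of 0.32 ± 0.07 (SE) had an unadjusted p of 6.88e-05 and an adjusted p of 0.498 by edgeR. Csrp1, a LIM domain protein of the actin cytoskeleton, had 245, 236 and 222 CPM at 22 months, against 171, 168, 165 and 164 CPM at 18 months. Csrp1 was called by both other fits, with an adjusted p of 0.0102 in the 7 libraries alone by edgeR and 0.0344 by limma-voom. Dusp4, a phosphatase that switches off MAP kinases, had 19.2, 16.0 and 13.4 CPM at 22 months, against 8.67, 6.81, 11.1 and 6.41 CPM at 18 months. Its log2 fold change of 1.03 ± 0.24 (SE) was the largest of the 10. Uxt, a prefoldin-like protein, had 8.04, 7.72 and 7.16 CPM at 22 months, against 4.08, 4.12, 4.91 and 4.94 CPM at 18 months. Dusp4, Uxt, Map7 and Mknk1, a kinase of the translation factor eIF4E, were called by limma-voom with adjusted p between 0.0344 and 0.0415. Chchd1, Pip4k2a, Hhatl, Tspan5 and Car7 complete the 10, with log2 changes of 0.41 to 0.92.

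The 10 lower genes were chosen in the same way. Rab3c, a GTPase of synaptic vesicles, had 235, 281 and 329 CPM at 22 months, against 377, 382, 360 and 404 CPM at 18 months. Rab26, a GTPase of secretory vesicles, had 40.5, 42.7 and 52.0 CPM at 22 months, against 62.8, 67.9, 64.5 and 65.2 CPM at 18 months. Cnih3, an auxiliary subunit of AMPA receptors, had 62.5, 73.8 and 89.8 CPM at 22 months, against 106, 108, 105 and 113 CPM at 18 months. In each of these 3 genes replicate 15 was lowest and replicate 21 nearest to the 18-month mice, and limma-voom gave each an adjusted p of 0.0344. Megf11, a cell surface protein with EGF-like repeats (chr9:64385626-64709205), had 13.6, 19.4 and 25.7 CPM at 22 months, against 32.7, 37.1, 31.9 and 42.9 CPM at 18 months. Its log2 fold change was -0.85 ± 0.18 (SE, unadjusted p = 8.77e-05), and the adjusted p by edgeR was 0.498, or 0.0456 when the 4 libraries low in Prox1 were left out, and 0.0344 by limma-voom. Tmem35a, a chaperone of nicotinic receptors, Adgra1, an adhesion receptor, Oprl1, the nociceptin receptor, Rxra, the retinoid X receptor, and Usp35, a deubiquitinase, had log2 changes from -0.44 to -0.74. Tmem35a and Adgra1 were called by limma-voom, each with an adjusted p of 0.0344. Replicate 21 was the library of 22 months nearest to the 18-month mice in 9 of the 10 lower genes and in 9 of the 10 higher ones.

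**Figure D3:**
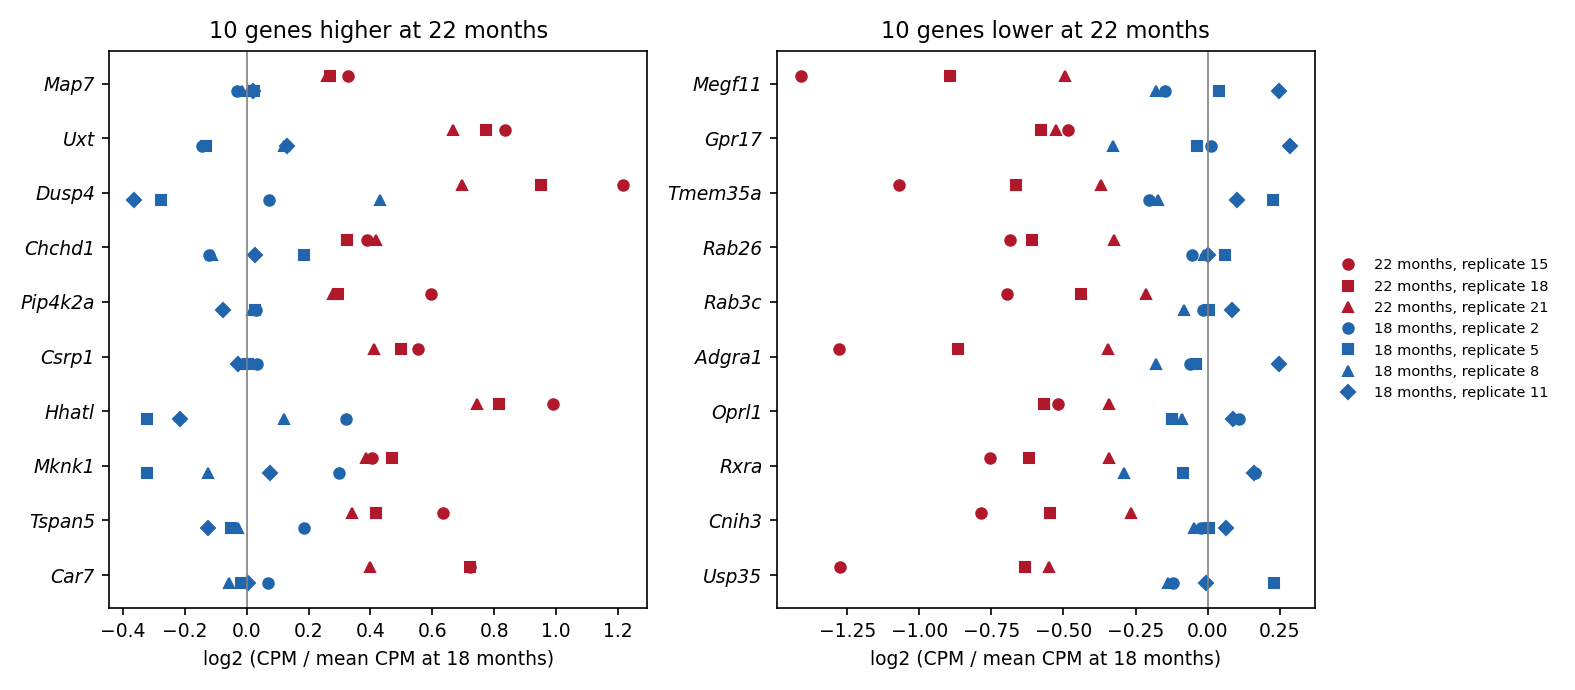
The 10 higher (left) and 10 lower (right) genes with the lowest unadjusted p that met the rule for named genes, each point 1 of the 7 PBS hippocampus libraries as the log2 ratio of its CPM to the mean CPM at 18 months (22 months in red, 18 months in blue). Groups do not overlap because the rule asked for it; replicate 21 (triangles) lies nearest to the 18-month mice in 9 of 10 genes on each side.

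Most genes of the reactive glia and immune lists had small positive changes at 22 months. Gfap, the intermediate filament of astrocytes, had 732, 622 and 633 CPM at 22 months, against 539, 430, 489 and 506 CPM at 18 months. The groups did not overlap, with a log2 fold change of 0.47 ± 0.21 (SE), an unadjusted p of 0.0374 and an adjusted p of 0.632 by edgeR. Of 14 reactive astrocyte genes 10 were higher (median 0.23, and 0.14 without 18-month replicates 5 and 11), with Gfap alone at an unadjusted p under 0.05, while 5 of 12 core astrocyte genes were higher (median -0.02). Serpina3n, a reactive astrocyte gene, overlapped with 51.4, 45.5 and 32.7 CPM at 22 months, against 44.1, 24.4, 33.4 and 29.9 CPM at 18 months, and its log2 change of 0.44 came to -0.01 with Prox1 as a covariate.

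Activated microglia genes were higher in 15 of 17 cases (median 0.24), 4 of them at an unadjusted p under 0.05: Cd9, Lyz2, Ctsz and Gpnmb. Their summed level overlapped between the ages, at 3544, 2887 and 3594 CPM at 22 months, against 3136, 3513, 4242 and 3281 CPM at 18 months. Of this sum Apoe alone had 2118, 1512 and 2112 CPM at 22 months, against 1803, 2187, 2953 and 1949 CPM at 18 months. The sum therefore mostly reports Apoe and says little on the other genes of the list. Cd9, a tetraspanin that myelinating oligodendrocytes also express, had 73.6, 69.2 and 68.0 CPM at 22 months, against 43.9, 49.8, 52.1 and 46.7 CPM at 18 months, without overlap, and was called in the 7 libraries alone (adjusted p = 0.0184 by edgeR). The 12 homeostatic genes of resting microglia had a median of 0.03 with 8 higher and none at that p. Complement genes were higher in 11 of 13 cases (median 0.13, and 0.31 without 18-month replicates 5 and 11). Their sum was 315 to 386 CPM at 22 months and 261 to 282 CPM at 18 months. Of that sum C4b alone had 128 to 147 CPM at 22 months and 85.5 to 93.1 CPM at 18 months. Without C4b the summed level overlapped between the ages. C1qa, a chain of the first complement component, had 40.1, 42.6 and 42.4 CPM at 22 months, against 36.5, 35.7, 39.4 and 35.5 CPM at 18 months.

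All 14 class I antigen presentation genes had a positive log2 change (median 0.27), 2 of them at an unadjusted p under 0.05. H2-D1, a class I heavy chain of a multigene family whose members can share reads, had 84.3, 81.6 and 98.2 CPM at 22 months, against 69.6, 61.3, 67.7 and 68.3 CPM at 18 months. B2m, the light chain, had 78.7, 77.5 and 86.8 CPM at 22 months, against 69.9, 69.9, 71.9 and 65.4 CPM at 18 months, so that both genes were without overlap. Their adjusted p was 0.591 and 0.634 by edgeR. Of 24 interferon response genes 23 were higher (median 0.45, and 0.27 without 18-month replicates 5 and 11), with none at an unadjusted p under 0.05. Their summed level was 178, 186 and 264 CPM in replicates 15, 18 and 21 at 22 months, against 197, 168, 176 and 187 CPM at 18 months. Replicates 15 and 18 lay within the 18-month range and replicate 21 alone above it. Replicate 21 was also highest in the summed list of mural cells and fibroblasts. That sum was 139, 177 and 395 CPM at 22 months, against 329, 203, 213 and 266 CPM at 18 months. Its part in the interferon and class I values was not tested. No gene of the class I or interferon lists was among the calls of DESeq2, limma-voom or the fit to the 7 libraries alone.

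Some genes, neuronal and not, split the 3 mice of 22 months. Calb2, which encodes calretinin of mossy cells, immature granule cells and interneurons, had 4.95, 9.13 and 41.5 CPM in replicates 15, 18 and 21 at 22 months, against 37.0, 56.3, 30.4 and 62.1 CPM at 18 months. Nnat, the imprinted gene of neuronatin, had 188, 214 and 449 CPM at 22 months, against 419, 509, 482 and 476 CPM at 18 months. In both genes replicates 15 and 18, which share a title number, lay below the other 5 of the 7 libraries, while replicate 21 lay within the range of the 18-month mice. The log2 change of Calb2 was -1.26 ± 0.55 (SE, unadjusted p = 0.0333, adjusted p = 0.626 by edgeR). Both genes were singled out after their values were seen.

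Most genes of the striatal and choroid plexus lists had negative changes at 22 months, by smaller amounts without 18-month replicates 5 and 11. Of this pair, replicate 5 had the highest striatal and choroid plexus sums of the 18-month mice, at 291 and 333 CPM. Replicate 11 had 204 and 160 CPM, the latter the lowest of its group. Striatal genes were lower in 11 of 12 cases (median -0.61, and -0.26 without those 2 libraries), with a sum of 147 to 171 CPM at 22 months and 159 to 291 CPM at 18 months, and none had an unadjusted p under 0.05. The part of striatal RNA in the split of the 22-month libraries was not tested. Choroid plexus genes were lower in 9 of 12 cases (median -1.72, and -0.72 without those 2 libraries). Their summed level overlapped at 195 to 205 CPM at 22 months and 160 to 333 CPM at 18 months. That sum mostly reports 1 gene, Enpp2, with 162 to 166 CPM at 22 months and 121 to 182 CPM at 18 months. Ttr, which encodes transthyretin and is made by choroid plexus, had 1.70, 11.3 and 1.67 CPM at 22 months, against 16.3, 111, 36.2 and 13.5 CPM at 18 months, with replicate 5 the highest and no overlap between ages. Its log2 change of -3.15 ± 2.62 (SE) had an unadjusted p of 0.242 by edgeR. With Ttr as a covariate the median change of the myelin list was 0.75. Interneuron genes were lower in 13 of 16 cases (median -0.25), though Pvalb averaged 26.2 ± 5.14 CPM at 22 months and 17.8 ± 0.703 CPM at 18 months (SD, n = 3 and 4), and Npy 75.6 CPM at 22 months and 61.9 CPM at 18 months.

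Genes of other functions differed little. Cholesterol synthesis genes were lower in 17 of 18 cases, with a median of -0.10. Proteasome genes were higher in 18 of 20 cases with a median of 0.05, ribosomal protein genes in 17 of 24 with a median of 0.05 and nuclear respiratory chain genes in 17 of 22 with a median of 0.03. The 18 synapse genes were split 9 to 9 (median 0.00). Immediate early genes were higher in 7 of 18 cases, and Fos, an activity-induced transcription factor, had 9.28, 19.9 and 21.1 CPM at 22 months, against 15.8, 17.7, 23.4 and 15.3 CPM at 18 months. Fkbp5, a glucocorticoid target, had 69.8, 67.5 and 72.7 CPM at 22 months, against 61.2, 55.5, 66.0 and 60.0 CPM at 18 months, with a log2 change of 0.24 ± 0.22 (SE).

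**Figure D4:**
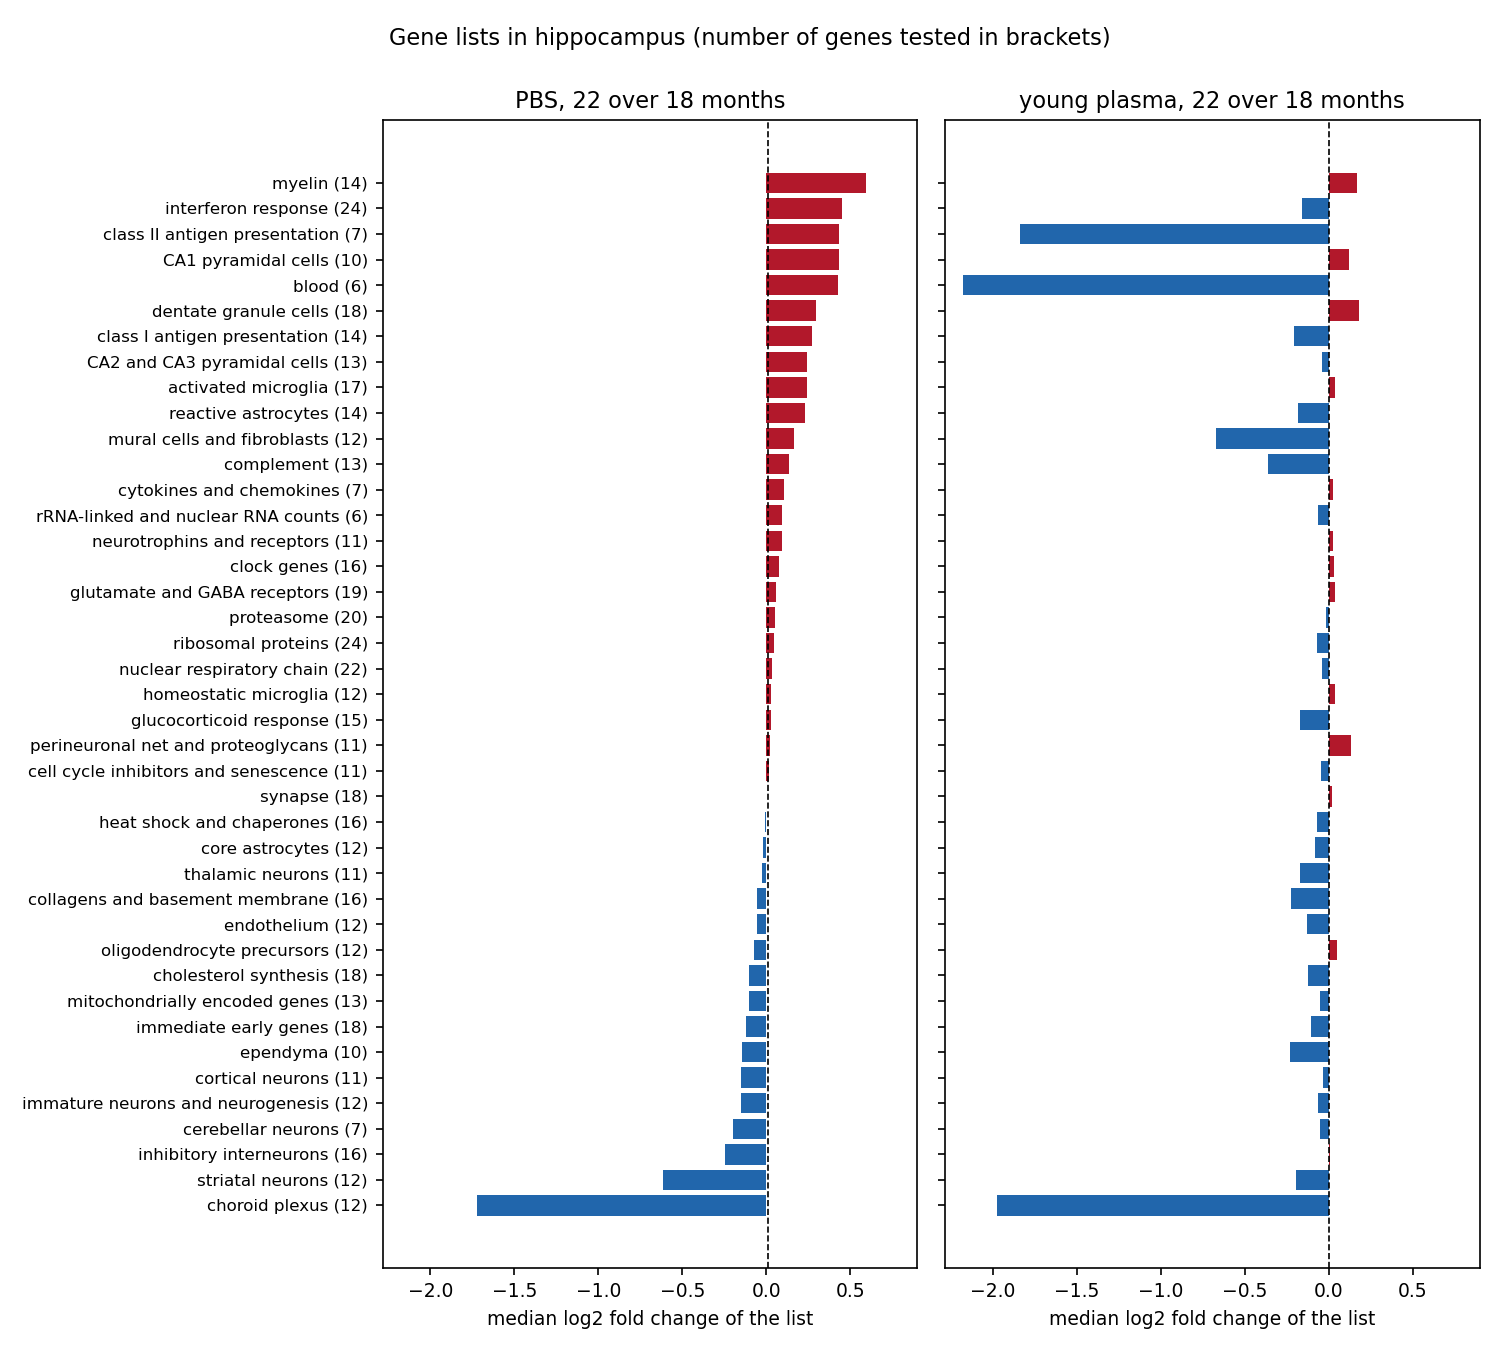
Median log2 fold change of 22 over 18 months (horizontal axis) for each gene list in PBS mice (left) and in mice given young plasma (right), with the number of genes tested in brackets and the median of all genes as a dashed line. In PBS mice the myelin list is highest at 0.59 and the choroid plexus list lowest at -1.72; in plasma mice the myelin median is 0.17 and those of the interferon and class I lists lie below 0.

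The same ages in mice given young plasma are 8 other animals. There, no gene of 18070 passed the adjusted threshold (0% called), with 393 at an unadjusted p under 0.05 (2.17%), 192 of them higher (1.06%) and 201 lower (1.11%), and DESeq2 and limma-voom each called 0 as well. All 14 myelin genes were again above 0, with a median of 0.17 where 50% of all genes lay above 0, and C4b had a log2 change of 0.43 (unadjusted p = 0.0583 by edgeR). Several lists with a positive median in PBS mice had a negative one in plasma mice. Among them were class I antigen presentation, where 1 of 14 genes was higher (median -0.20), interferon response with 7 of 24 (-0.16), complement with 5 of 13 (-0.36), reactive astrocytes with 5 of 14 (-0.19), class II antigen presentation with 2 of 7 (-1.84) and blood with 1 of 6 (-2.18). The list medians were given no test. Most genes of the class II and blood lists stood at only a few CPM in the 7 PBS libraries. Among the 18-month plasma mice, replicate 4 held 1659775 counts, the fewest of the 29 hippocampus libraries. Replicate 7 of that group had Ttr at 2444 CPM. The part of these libraries in the negative medians was not tested. The difference between the PBS and the plasma change, which shares its PBS libraries with the first comparison, gave 0 genes past the adjusted threshold (0%) and 491 at an unadjusted p under 0.05 (2.72%) by edgeR, 288 positive (1.59%) and 203 negative (1.12%), with 1 call by DESeq2 and 0 by limma-voom. Among the myelin genes the unadjusted p of that difference ran from 0.0688 (Opalin) to 0.853 (Myrf), so the smaller median in plasma mice was not shown to differ. Of all genes, 51.9% had a positive difference. The 22-month plasma mice carry the title number of PBS replicate 21.

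In naive mice of 18 months against 2 months, 13 genes passed the adjusted threshold (0.0719%), 12 higher and 1 lower at 18 months. At an unadjusted p under 0.05 there were 1132 genes (6.26%), 587 higher (3.25%) and 545 lower (3.02%), and 47% of all genes lay above 0. The genes named above that passed there were C4b (log2 fold change 2.30), Neat1 (1.39), C1qa (0.54) and Gpr17 (-0.85), with adjusted p of 4.74e-05, 0.00883, 0.037 and 0.00164 by edgeR. Each had the same direction between 18 and 22 months in PBS mice, at 0.66, 0.81, 0.22 and -0.51. Gpr17 was also picked by its change between those ages, and C1qa was chosen after its values were seen. The other genes of the 13 were not followed, so the shared direction only describes these 4. The myelin list had a median of 0.43 in the naive comparison, where 2 of the 4 young libraries were low in Prox1, and 15 genes passed without the low libraries.

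The change in the hippocampus was then set against that in the other regions of the same mice, as a difference of differences over 87 libraries. Against the cortex, 107 of 19490 genes (0.549%) passed the adjusted threshold, 31 with the more positive change in the hippocampus (0.159%) and 76 with the more negative (0.39%). Of the 104 that could also be fitted in the hippocampus alone, 75 were lower in the hippocampus and higher in the cortex, and 29 the reverse. Within the cortex alone 18 genes passed (0.0924%), 16 higher (0.0821%) and 2 lower (0.0103%) at 22 months, and 1912 had an unadjusted p under 0.05 (9.81%). With the mouse as a replicate block 25 genes were called, 24 of them among the 107. Without the cortex library of 22-month mouse 15, an alternative chosen after the data were seen, 0 were called. Leaving out all 3 libraries of that mouse left 1 call, and leaving out 18-month mouse 11 left 0, while leaving out 22-month mouse 21 gave 476.

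Trhr, the receptor of thyrotropin-releasing hormone, had 1.24, 2.32 and 9.30 CPM in the hippocampus of mice 15, 18 and 21 at 22 months, against 9.69, 14.3, 13.6 and 21.4 CPM at 18 months. In the cortex of the same mice it had 10.3, 1.42 and 1.12 CPM at 22 months, against 0.245, 0.492, 0.392 and 0 CPM at 18 months. Mouse 15 was thus the lowest of the 7 in the hippocampus and the highest in the cortex. Dlk1, an imprinted Notch-like protein, gave the same picture, with 0.619, 2.19 and 8.09 CPM in the hippocampus at 22 months, against 9.69, 17.2, 13.4 and 14.4 CPM at 18 months. Its cortex values were 11.0, 0.712 and 0.374 CPM at 22 months, against 0.327, 0, 0.392 and 0 CPM at 18 months. The difference of changes was -5.37 ± 1.11 for Trhr and -5.54 ± 1.34 for Dlk1 (SE, adjusted p = 0.0114 and 0.0316 by edgeR), and -3.62 and -2.67 without the cortex library of mouse 15 (adjusted p = 0.466 and 0.796). Gpr101, an orphan receptor, and Otof, the calcium sensor otoferlin, were highest in the same cortex library, at 15.7 and 65.6 CPM.

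In the other direction, Robo3, an axon guidance receptor, had 14.5, 11.2 and 8.37 CPM in the hippocampus at 22 months, against 6.12, 2.33, 8.30 and 3.54 CPM at 18 months. Its cortex had 6.09, 18.9 and 19.4 CPM at 22 months, against 24.4, 25.6, 26.8 and 34.2 CPM at 18 months, lowest in mouse 15. Zfpm1, a cofactor of GATA factors, had 20.7, 10.4 and 10.1 CPM in the hippocampus at 22 months, against 9.69, 8.42, 9.62 and 8.18 CPM at 18 months. In the cortex it had 11.1, 13.2 and 13.2 CPM at 22 months, against 18.3, 18.2, 21.0 and 21.0 CPM at 18 months, so the ages were apart in both regions and in opposite directions. Its difference of 1.32 ± 0.29 (SE) had an adjusted p of 0.0137 by edgeR, and 0.0365 with the replicate block. Klhl33, of the kelch family, kept its call with the block as well (1.36, adjusted p = 0.0365), while Cdr1 did not (1.48, adjusted p = 0.0537). Cdr1 lies opposite a circular RNA, and the libraries do not mark strand.

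Against the cerebellum, 124 of 19490 genes (0.636%) passed, 32 more positive (0.164%) and 92 more negative (0.472%) in the hippocampus, and 68 with the mouse as a replicate block, 58 of them among the 124. Within the cerebellum alone 106 genes passed (0.544%), 76 higher (0.39%) and 30 lower (0.154%) at 22 months. Leaving out 18-month mouse 5 left 2 calls, and leaving out 22-month mouse 18 left 0. Of the 123 genes also fitted in the hippocampus, 88 were lower there and higher in the cerebellum. Lhx2, a forebrain transcription factor, had 43.6, 32.3 and 38.3 CPM in the hippocampus at 22 months, against 47.7, 48.2, 52.3 and 44.1 CPM at 18 months. In the cerebellum it had 1.03, 0.983 and 0.801 CPM at 22 months and was at 0 in all 4 libraries of 18 months. Sst, the interneuron peptide somatostatin, overlapped in the hippocampus with 195, 157 and 244 CPM at 22 months, against 222, 285, 207 and 226 CPM at 18 months. Its cerebellar values were 13.0, 16.0 and 11.0 CPM at 22 months, against 4.86, 1.02, 1.26 and 1.16 CPM at 18 months. For both genes all cerebellar libraries of 22 months were above those of 18 months, at a small share of the hippocampal level.

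Uxt had the lowest p against the cerebellum, a difference of 1.22 ± 0.22 (SE, adjusted p = 0.0102 by edgeR, 0.0133 with the replicate block). It was without overlap in both regions and in opposite directions, since its cerebellar values were 5.85, 6.66 and 5.87 CPM at 22 months, against 6.80, 8.28, 8.63 and 9.01 CPM at 18 months. Cep72, a centrosome protein, had 2.79, 2.96 and 2.42 CPM in the hippocampus at 22 months, against 1.79, 1.08, 1.13 and 1.25 CPM at 18 months, and also kept its call with the block. Mis18a, which loads the centromeric histone, had 11.8, 7.33 and 9.95 CPM in the hippocampus at 22 months, against 8.42, 6.27, 6.60 and 4.87 CPM at 18 months, and overlapped. Ngb, which encodes neuroglobin, and AW551984 were low in mice 15 and 18 in the hippocampus, with 0.619 and 0.772 CPM for Ngb and 0.155 and 1.93 CPM for AW551984, and reached 5.58 and 7.44 CPM in mouse 21. At 18 months Ngb ran from 4.85 to 19.2 CPM and AW551984 from 8.16 to 17.3 CPM. Within the cerebellum both were higher at 22 months, with log2 changes of 3.66 for Ngb and 5.30 for AW551984.

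**Figure D5:**
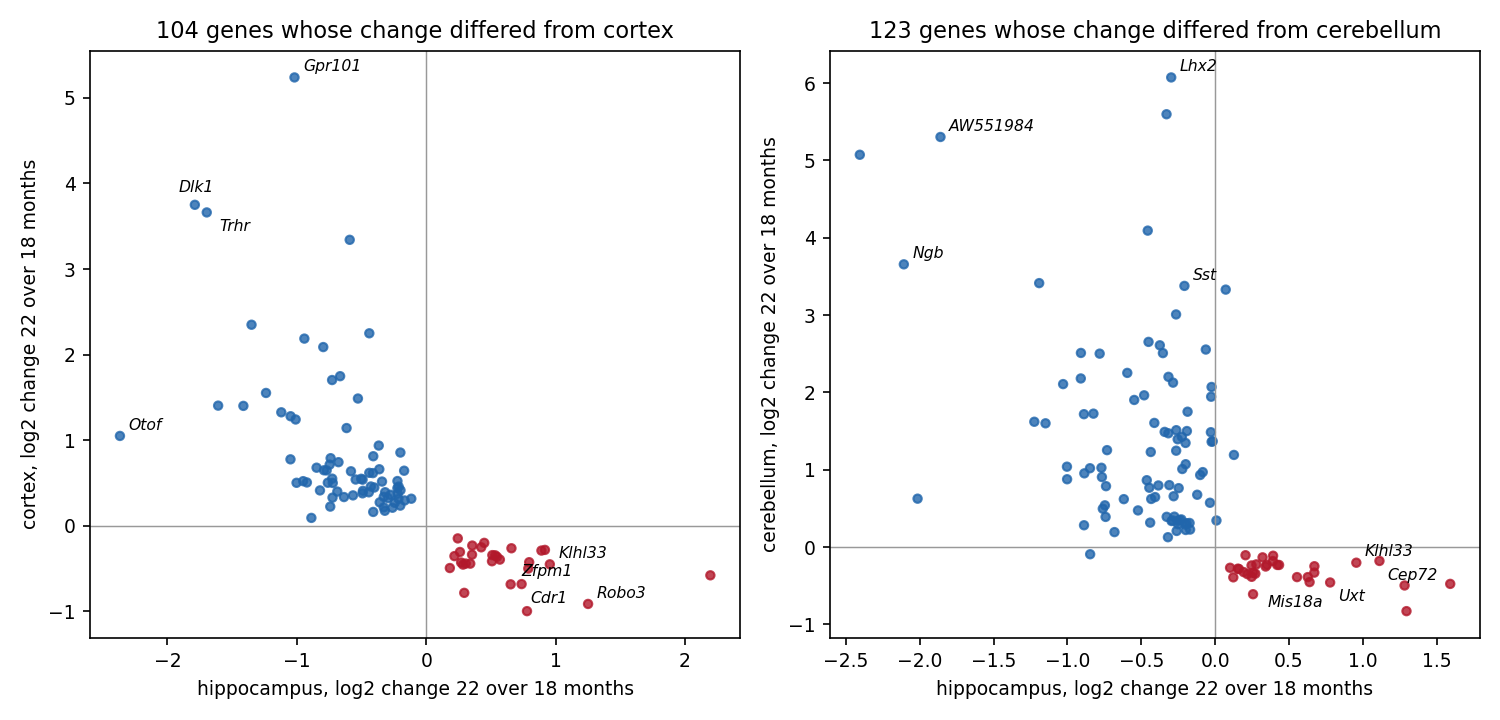
Log2 change of 22 over 18 months in the hippocampus (horizontal axis) against that in the cortex (left, 104 genes) or cerebellum (right, 123 genes) for the genes whose change differed between the regions and that could be fitted in the hippocampus alone; red, more positive in the hippocampus; blue, more negative. Most points lie at upper left, lower in the hippocampus and higher in the other region; the genes were chosen for this difference, and with the cortex library of 22-month mouse 15 left out none is called on the left.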

How the data were processed

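The deposited values were whole-number counts per gene symbol, which per the labels came from unstranded mRNA libraries made with Smart-Seq2 and Nextera XT from RNA of whole tissue. The submitters' processing notes name Trim Galore 0.3.7, STAR 2.5.3a, the GRCm38 build and DESeq2; the counting tool and annotation are not given in the sources used here. Of 35486 symbols, 6251 were at 0 in every library. No libraries of the 7 were identical. CPM are counts over the library total, times 1000000.

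Tests used edgeR 4.0.16 (R 4.3.3; robust quasi-likelihood, TMM, filterByExpr with a minimum count of 10 and a total of 15, Benjamini-Hochberg threshold 0.05). The 29 hippocampus libraries of experiment 1 entered with 1 coefficient per group, and differences between regions used 87 libraries. In the hippocampus fits the replicates were separate mice, so p-values measure the spread between mice. In the fit over 87 libraries the regions of a mouse entered as independent, with no mouse term. The replicate block was the alternative to it. limma 3.58.1 and DESeq2 1.42.0 gave alternatives, and the tests were tested on simulated counts. For 22 over 18 months in the hippocampus, the main test called 32% of 50 genes given a log2 change of 0.5. At a log2 change of 1 it called 70.8% of 48 genes. It also called 11 unchanged genes among the 17873 fitted. A few genes are not reported here by name. The same mouse gave its regions, per the labels; the median correlation of its deviations was 0.06 between hippocampus and cortex and 0.0256 between hippocampus and cerebellum over 29 mice.

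Named genes were up to 10 per direction by unadjusted p where none passed the threshold, whose 2 groups were apart, that averaged 5 CPM or more over the 7 libraries and carried no clone name, plus Prox1, C4b, Gfap, Serpina3n, Fkbp5, Ttr, Fos, Gpr17 and Neat1. For the region differences they were up to 4 genes per direction, by size, past the threshold. Members of the 42 lists were described by counts and medians. The libraries and lists were chosen with earlier results of these data known. Bcas1, Calb1, Calb2, Lct, Nnat, Cd9, H2-D1, B2m, C1qa and the genes called by alternatives only were chosen after their values were seen.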

Additional observations from a re-analysis of the deposited data

Results flagged for a closer look

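In the hippocampus, 18-month replicate 11 lay far below the other 3 mice of its group in 3 of the 65 genes checked: Mbp at 2058 CPM, Mobp, a myelin protein, at 509 CPM and Pip4k2a, a lipid kinase, at 71.1 CPM.

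Between the hippocampus and the cortex, the late-life log2 change differed by edgeR's adjusted p in 8 named genes. The difference was more positive in the hippocampus for Robo3 (2.17), Cdr1 (1.41), Klhl33 (1.41) and Zfpm1 (1.32), and more negative for Gpr101 (-6.27), Dlk1 (-5.54), Trhr (-5.37) and Otof (-3.43).

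Against the cerebellum it was more positive for Cep72 (1.28), Uxt (1.22), Klhl33 (1.16) and Mis18a (1.09), and more negative for AW551984 (-7.16), Lhx2 (-6.38), Ngb (-5.77) and Sst (-3.59). Most of each of these negative differences was a higher cerebellar level at 22 months. In the order named, the log2 change was 5.30, 6.07, 3.66 and 3.38 in the cerebellum. In the hippocampus it was -1.86, -0.30, -2.11 and -0.21.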

How the results depend on the processing

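The count of genes past the threshold between 22 and 18 months was 0 with relative log expression size factors, no filter, Prox1 or granule cell markers as covariate, both experiments, and each mouse left out. It was 16 with limma-voom, 1 with DESeq2, 2 with Ttr as covariate, 3 without the libraries low in Prox1 and 21 with the compared groups alone; the cause was not tested. DESeq2 gave 1 call for the PBS minus the plasma change. The myelin median was 0.51 to 0.69 with each mouse left out and 0.75 with Ttr as covariate. Its count at an unadjusted p under 0.05 was 5 to 13 with each mouse left out and 2 without 18-month replicates 5 and 11, which leaves fewer samples. The Prox1 difference was 16.7 to 33.1 CPM with each mouse left out. Fos had a log2 change of -0.04, against 0.14, 0.12 and 0.17 with Prox1, granule cell markers and Ttr as covariate, and -0.23 to 0.21 with each mouse left out. Serpina3n came to -0.00828 with Prox1 as covariate.

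Against the cortex 107 genes were called. In place of these, limma-voom called 222 (86 of the 107 among them) and the replicate block 25 (24 among them). Leaving out the libraries low in Prox1 gave 463, and leaving out each mouse 0 to 476. Leaving out only the hippocampus libraries of 18-month replicates 5 and 11, or the cortex library of mouse 15, gave 0. Against the cerebellum 124 genes were called. In place of these, no filter gave 62, limma-voom 673 and the replicate block 68 (58 of the 124 among them). Leaving out the libraries low in Prox1 gave 327, leaving out libraries under 2500000 counts 45, and leaving out each mouse 0 to 107. Leaving out only the hippocampus libraries of 18-month replicates 5 and 11 gave 0. The last pair and the single cortex library were chosen after seeing the data.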
